A study of Mus musculus with 6 samples.

Results

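The cytosolic ribosomal protein genes were described in single cells of the mouse striatum at an early postnatal and an adult age. Members were the genes of the count table whose symbol starts with Rps or Rpl followed by a digit, after removal of 5 symbols that hold -ps, the mark of a pseudogene, and of 10 symbols of the S6 kinases (Rps6k). This left 82 of 32285 genes, 33 of the small subunit by symbol (Rps) and 49 of the large subunit (Rpl). The rule used symbols only and no measured value. It takes in *Rps19bp1*, which encodes a binding partner of a ribosomal protein and no ribosomal protein, and it misses 7 ribosomal protein genes that are spelled otherwise (among them *Rpsa*, *Rplp0*, *Rplp1*, *Rplp2*, *Rack1* and *Fau*), which are given separately. The cells were prepared from wild type male C57BL/6 mice, with striata of several animals pooled for each preparation, and were enriched with magnetic beads for the astrocyte surface antigen ACSA2 after enzymatic dissociation. There were 3 libraries of postnatal day 3 (P3) and 3 of 3 months (3m), made with a 3′ droplet kit that counts unique molecular identifiers (UMIs). No library received a treatment. Cluster, sub-cluster and pseudotime names are those the authors deposited.

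A cytosolic ribosome consists of a small and a large subunit, each built on ribosomal RNA with a single copy of nearly every ribosomal protein. Translation of their mRNAs is controlled as a group through a run of pyrimidines at the very 5′ end of the message, which makes it depend on signalling through the kinase TOR. Ribosomal protein mRNAs are among the most abundant of growing cells, and a cell that builds many ribosomes spends a large share of its mRNA on them. *Rps6*, the small subunit protein phosphorylated by the S6 kinases, is widely used as a readout of that signalling.

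The annotated 5′ ends of a few members show how far runs of C and T near the start vary. They were chosen because their mRNAs are described further on, apart from *Rpl7a*, which is shown for its long run. RefSeq promoters (assembly GRCm38.p6) were matched for 63 of the 82 members. Each sequence covers 20 bases before to 10 bases from the annotated start, on the strand of the gene, and the capitals mark the longest run of C and T in that window. The windows are at chr2:26910787-26910816 (plus strand) for *Rpl7a*, chr4:86857358-86857387 (minus) for *Rps6*, chr17:24720043-24720072 (plus) for *Rps2*, chrX:102189382-102189411 (minus) for *Rps4x*, chr3:90213639-90213668 (minus) for *Rps27*, chr9:114982730-114982759 (minus) for *Rps27rt* and chr2:180257359-180257388 (plus) for *Rps21*.
Rpl7a: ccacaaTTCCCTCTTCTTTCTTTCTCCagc
Rps6: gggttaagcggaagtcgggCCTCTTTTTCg
Rps2: tgcgtaggcagtcgagatctcgcgCTTCTT
Rps4x: aaagTCTgaggctgggcggagcaacccagg
Rps27: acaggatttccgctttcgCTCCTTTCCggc
Rps27rt: ggttaagaacttaTCCCTTgctttccggcg
Rps21: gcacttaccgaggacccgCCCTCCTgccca
The longest run in the window was 21 bases in *Rpl7a*, 10 in *Rps6*, 9 in *Rps27* and 3 in *Rps4x*. Such a run need not lie in the mRNA. In *Rps4x* and *Rps27rt* it ends before the annotated start. A run of 8 or more C or T on the gene's strand within 25 bases of the start was found in 29 of the 63 member promoters (46.0%) and in 19.2% of the 20267 promoters matched to the count table. Runs of 8 or more A or G, counted the same way, were in 5 member promoters (7.94%) and in 20.4% of all. The letters CGGAAG, or CTTCCG for the other strand, the core of sites bound by ETS family factors, were in the 300 bases of 42 member promoters (66.7%) and of 20.1% of all. These letters describe the windows and were not matched to any binding measurement.

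The table held 16690 barcodes, 14373 of them annotated, and 37 barcode sequences occurred in more than 1 library (28 among annotated cells). Astroglia were taken as the 9896 cells of the authors' re-clustered astroglia (8778 at P3, 1118 at 3m) without cluster AST_P3_19, which was led by *Deup1* and *Mcidas*, genes of cells that form many cilia. Their UMI sums per library were 22192415 to 30138579 at P3 and 1157485 to 1843998 at 3m, so the 3m values rest on far fewer UMIs. Astroglial markers summed to 26795 to 31872 CPM (UMIs scaled to a total of 1e+06) at P3 and 18946 to 20146 CPM at 3m, and oligodendrocyte markers to 127 to 146 CPM at P3 and 878 to 2173 CPM at 3m. The median mitochondrial share of these cells was 1.26% to 2.47% at P3 and 5.97% to 8.18% at 3m. Of the 82 members, 81 had at least 1 UMI. *Rpl10l*, a testis paralogue, had 0 of 128757268 UMIs, which allows up to 0.0233 CPM by counting error alone.

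The members together took very different shares of a cell's UMIs in different cell types. In astroglia they made up 11.2%, 13.9% and 10.7% of UMIs in the 3 P3 libraries, and 3.74%, 5.88% and 4.20% in the 3 libraries of 3m. In the microglia of cluster MIC_16 (124 cells at P3, 60 at 3m), whose microglial markers summed to 26419 to 31945 CPM at P3 and 43220 to 55701 CPM at 3m, the shares were 21.6%, 25.1% and 20.4% at P3 and 15.9%, 17.5% and 14.2% at 3m. At each age every library thus gave a higher share in microglia than in astroglia. All clusters come from expression of all genes, members included, so the shares by cluster are given as a description, with no test.

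**Figure D1:**
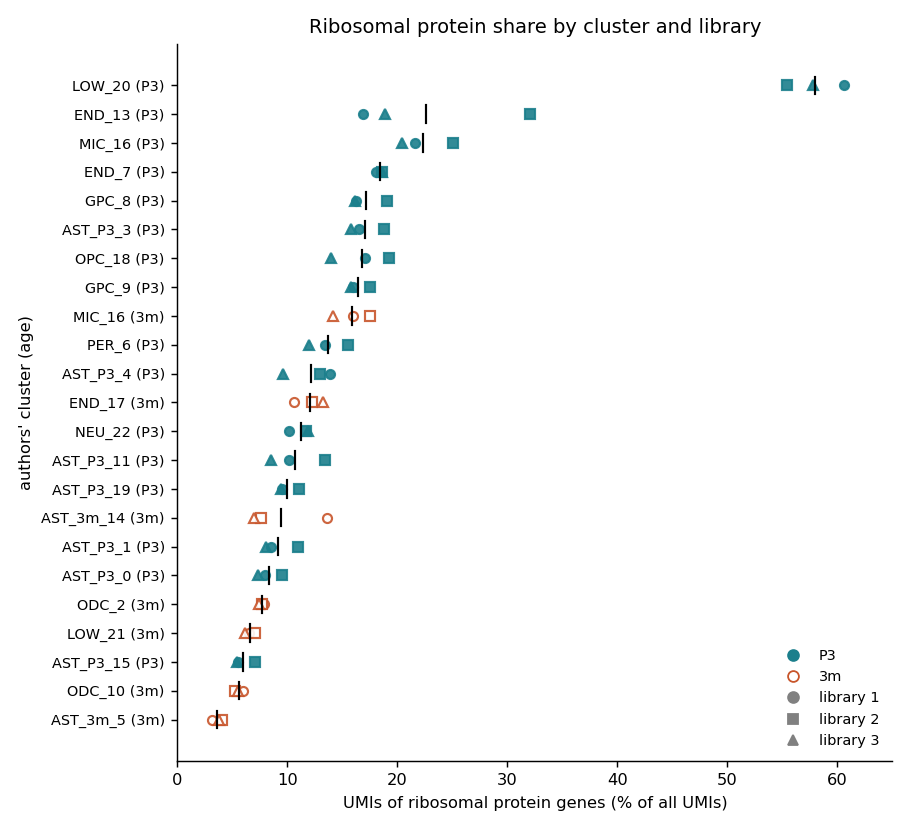
Share of UMIs from the 82 ribosomal protein genes (%, x axis) in the authors' clusters by age (y axis), with 1 point for each library that has at least 10 cells of the cluster, filled at P3 and open at 3m. LOW_20 lies far above all others at 57.9% on average, MIC_16 is high at both ages, and the adult astrocyte cluster AST_3m_5 is lowest at 3.63%.

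Across clusters with at least 10 cells in all 3 libraries of an age, the mean share ran from 3.63% ± 0.466 (SD, n = 3) in the adult astrocyte cluster AST_3m_5 to 57.9% ± 2.61 in the P3 cluster LOW_20. LOW_20 (90 cells) has no cell type name here. Its cells had a median mitochondrial share of 0.498%, the lowest of the clusters listed, and were led by *1500035N22Rik*, *Eef1a2* and *Stmn2*. Below it at P3 came END_13 with 22.6% ± 8.26, a cluster whose libraries spread from 16.8% to 32.1%, MIC_16 with 22.4% ± 2.43 and END_7 with 18.4% ± 0.320. END_7 had a median of 27076 UMIs a cell. Set against other classes, its 10 leading genes held 4 of blood cells and 1 endothelial marker, and those of END_17 held 4 of blood cells and 3 endothelial markers.

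The cycling and progenitor-like clusters and the oligodendrocyte precursors of P3 formed the next group. GPC_8 had 17.2% ± 1.66, the astrocyte cluster AST_P3_3 had 17.0% ± 1.58, OPC_18 had 16.7% ± 2.64 and GPC_9 had 16.4% ± 0.964. Each overlapped its neighbour in this order, so their order among themselves lies within the spread of the libraries. The next cluster down, the pericyte-labelled PER_6 at 13.7% ± 1.78, did not reach GPC_9 in any library but with 15.5% in its highest library overlapped OPC_18, whose lowest library had 13.97%.

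The remaining P3 astrocyte clusters held lower shares, from 12.1% ± 2.27 in AST_P3_4 and 10.7% ± 2.50 in AST_P3_11 through 8.28% ± 1.13 in AST_P3_0 to 5.97% ± 0.922 in AST_P3_15. Among 3m cells the order of the named clusters was MIC_16 at 15.9% ± 1.67, END_17 at 12.03% ± 1.35, AST_3m_14 at 9.40% ± 3.66, the oligodendrocyte clusters ODC_2 at 7.66% ± 0.266 and ODC_10 at 5.57% ± 0.376, and AST_3m_5. The value of AST_3m_14 rests on a part of its cells in libraries 2 and 3, where the median cell had 5.60% and 4.40% and the upper quartile 14.8% and 21.4%. In library 1 (19 cells) the share was 13.6%, the highest of the cluster, and the median cell had 18.5%. The libraries of AST_3m_14 overlapped those of END_17 and of ODC_2. The oligodendrocyte clusters did not overlap each other, nor did ODC_10 and AST_3m_5. OPC_18 at 3m had 13 cells in all and 6.32%, and PER_6 at 3m had 16 cells and 9.05%, in both with no library of 10 cells.

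Within the re-clustered astroglia, 3 P3 sub-clusters stood above the rest. Sub-cluster 2 had 17.7% ± 1.67, sub-cluster 6 had 17.0% ± 1.71 and sub-cluster 8 had 16.3% ± 0.598, and the libraries of these 3 overlapped. The next, sub-cluster 4, had 11.7% in 2 libraries and did not overlap sub-cluster 8. The lowest at P3 was sub-cluster 11, whose leading genes include the astrocytic angiotensinogen gene *Agt*, with 5.98% ± 1.00. At 3m sub-clusters 7 and 13 had 3.92% ± 0.170 and 4.36% (2 libraries), while sub-cluster 16 had 20.6% ± 2.25. The 121 cells of sub-cluster 16 were led by *Mbp* and *Mobp*, myelin genes, and carried 12794 to 35890 CPM of oligodendrocyte markers against 386 to 526 CPM in sub-clusters 7 and 14, together with 9268 to 14486 CPM of astroglial markers. Their median depth was 1916 UMIs. The part of these oligodendrocyte mRNAs in the share of sub-cluster 16 was not tested.

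With age, the ribosomal protein share of astroglia fell from 11.9% ± 1.72 to 4.61% ± 1.13 (SD, n = 3 libraries each), a P3 level 2.59 times that of 3m, and the libraries of the 2 ages did not overlap. The exact permutation test gave p = 0.1, the smallest value that 3 against 3 libraries allow (two-sided). In microglia the mean went from 22.4% ± 2.43 to 15.9% ± 1.67, again without overlap and with exact p = 0.1. The ratio of the astroglial to the microglial share within a library was 0.518, 0.554 and 0.523 at P3 and 0.235, 0.336 and 0.296 at 3m. On the log2 scale this ratio was 0.89 lower at 3m (exact permutation p = 0.1, the smallest possible). The astroglial share was thus a smaller fraction of the microglial share in each 3m library than in any P3 library. In percentage points the gaps of the ages overlapped. The median astroglial cell had 8.39%, 10.9% and 8.04% at P3 and 3.20%, 4.14% and 3.71% at 3m. The lower quartiles of the P3 cells (6.46%, 8.72% and 6.36%) lay above every 3m median, so that the typical cell was lower too.

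The age difference in astroglia was -7.31 percentage points. It was -8.09 points without sub-cluster 16, -8.10 points without sub-clusters 12, 15 and 16, and -8.76 points in the sub-clusters that the study places in the telencephalon. It was thus as large without the cells of sub-cluster 16. It was -7.22 points after removal of mitochondrial UMIs. It was -5.53 points without cells that cycled by all their UMIs, and -4.53 points among cells of 3000 to 6000 UMIs.

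The summed UMIs of the shallowest cells went against this, while their typical cell did not. Summed astroglia of up to 2000 UMIs had 12.1% ± 2.13 at 3m (212 cells) and 11.0% ± 1.99 at P3 (1113 cells), a difference of 1.15 points the other way (exact permutation p = 0.5). The median cell of that depth had 5.92%, 6.53% and 5.73% at 3m and 12.8%, 10.3% and 8.45% at P3, which did not overlap, a difference of -4.48 points (exact permutation p = 0.1). The upper quartile at 3m was 25.7%, 20.6% and 9.89%, so that a part of the 3m cells with high shares carried the sums. Of the 212 cells at 3m, 75 were of sub-cluster 16 and 111 of sub-cluster 7, and of the 1113 at P3, 622 were of sub-cluster 4. From 2000 to 4000 UMIs the shares were 8.54% ± 1.61 at P3 and 5.01% ± 0.988 at 3m. From 8000 to 16000 UMIs they were 11.2% ± 1.86 and 3.96% ± 0.823. Above 16000 UMIs the P3 share was 15.9% ± 1.13, and only 4 cells of 3m were that deep. The share thus stood higher in deeper P3 cells from 2000 UMIs on, and lower in deeper 3m cells.

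**Figure D2:**
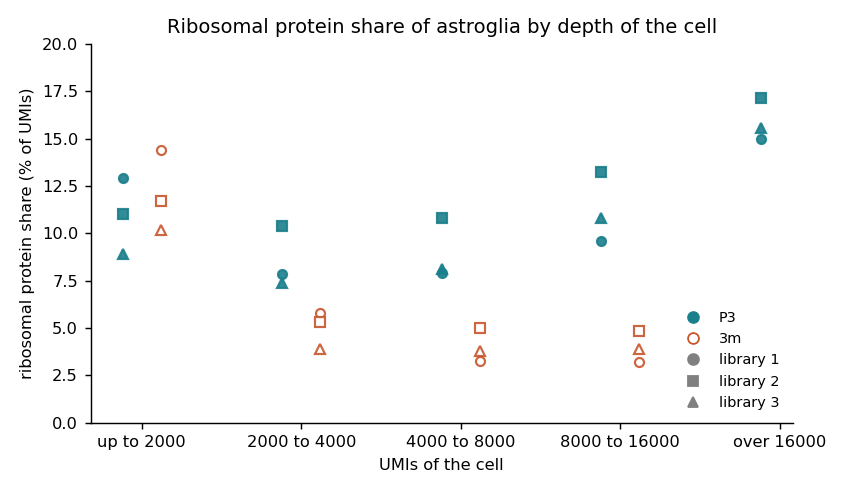
Ribosomal protein share of astroglia (% of UMIs, y axis) by the UMIs of the cell (x axis, 5 ranges), with 1 point per library that has at least 10 cells in the range, filled at P3 and open at 3m. The summed shares of the ages overlap up to 2000 UMIs, where medians of cells do not, and lie apart in each deeper range with both ages, where P3 means run from 8.54% to 11.2% and 3m means from 3.96% to 5.01%.

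Cycling astroglia had more ribosomal protein mRNA than non-cycling astroglia of the same P3 libraries. Cells counted as cycling where at least 2 of *Mki67*, *Top2a* and *Cdk1*, 3 genes of the dividing cell, had a UMI after thinning to 2000 UMIs. There were 595 cycling and 7071 non-cycling cells at P3 and 0 cycling of 906 at 3m, which by counting error alone, over the pooled cells, allows a share of up to 0.331%. The share was 16.2% ± 1.05 in cycling and 11.2% ± 1.83 in non-cycling P3 astroglia, with no overlap between libraries, and 4.17% ± 0.850 in non-cycling 3m astroglia. The median depth was 16070 UMIs in cycling and 7980 UMIs in non-cycling P3 cells.

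The difference was not seen inside the progenitor sub-clusters. In sub-cluster 6, where 56.3% of cells cycled, cycling cells had 16.8% ± 1.44 and non-cycling cells 17.2% ± 2.09. In sub-cluster 8, with 37.5% cycling, cycling cells had 15.5%, 14.8% and 15.2% and non-cycling cells 16.7%, 18.5% and 16.5%, so that the non-cycling cells were higher in each library. Sub-cluster 2, with 0.664% cycling cells, had 17.6% ± 1.68 in its non-cycling cells. Among cells of over 16000 UMIs, cycling cells had 17.5% ± 0.828 and non-cycling cells 15.1% ± 1.39, and from 8000 to 16000 UMIs 12.9% ± 1.87 and 11.0% ± 1.88.

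Along the authors' pseudotime, which starts at sub-cluster 6 and ends in the adult astrocytes of sub-clusters 7 and 14, the share had a shallow trough, a second maximum and then a long decline. It was 21.2% in bin 2 (2 libraries), 15.1% ± 1.21 in bin 7, 20.9% ± 2.41 in bin 10 and 19.3% ± 2.32 in bin 11. No library of bin 10 overlapped bin 7. It was then 15.1% ± 1.28 in bin 12, 9.86% ± 0.944 in bin 13 and 7.09% ± 0.877 in bin 14, the last bin with at least 10 P3 cells in all libraries. Bin 15 held 9 P3 cells with a pooled share of 3.89% and 22 3m cells with 5.94%. Bins 13 and 14 did not overlap, and neither did bin 13 and bin 12. In 3m cells it was 3.94% ± 0.572 in bin 16, 3.62% ± 0.378 in bin 17 and 3.49% ± 0.347 in bin 18, which overlapped. Most of the decline over the bins therefore lay inside P3 cells. The bins were cut by the authors from an ordering that uses expression, so these values are a description.

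**Figure D3:**
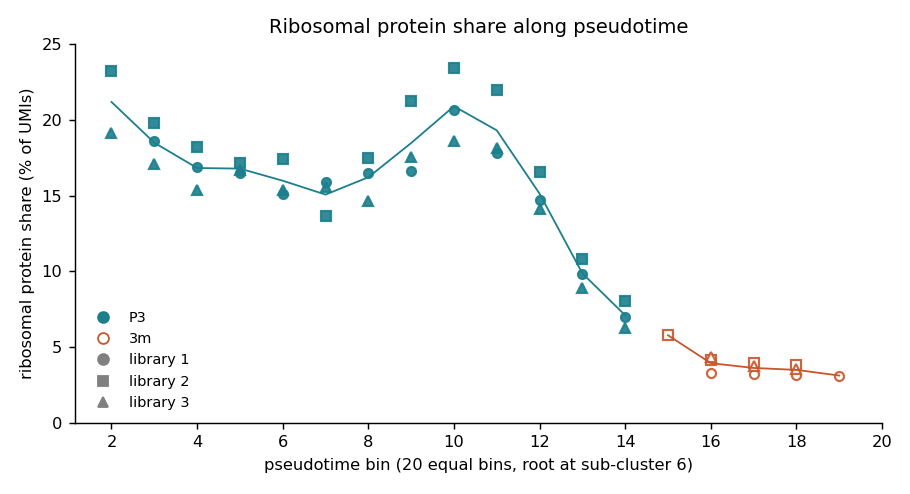
Ribosomal protein share (% of UMIs, y axis) by pseudotime bin (x axis, 20 equal bins), with 1 point per library that has at least 10 cells in the bin, filled at P3 and open at 3m. The share dips to 15.1% in bin 7, is 20.9% in bin 10 and goes down to 7.09% in bin 14, before the 3m points begin.

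Gene by gene, nearly all members fell with age in astroglia. UMIs were summed per library and fitted across 13469 genes with edgeR's quasi-likelihood test. A gene was called where the Benjamini-Hochberg adjusted p was 0.05 or less and the log2 fold change was 1 or more in either direction. Of the members, 79 were tested and 57 were called lower and 0 higher at 3m, beside 16.04% of all tested genes called lower and 15.9% called higher. By the adjusted p alone 72 members were lower (25.5% of all genes) and 0 higher (23.4%). At an unadjusted p under 0.05 0 members were higher (26.4% of all genes), and DESeq2 called 0 higher. In 72 members all 3m libraries were below all P3 libraries (37.1% of all genes). The 3 untested members, *Rpl10l*, *Rpl39l* and *Rpl3l*, had at most 7 UMIs over all astroglia. The median log2 fold change was -1.26 over the members and -0.04 over all genes, and it was alike for the 33 small subunit members (-1.24) and the 46 large subunit members (-1.26). Without TMM scaling the median of all genes moved to -0.22 and that of the members to -1.43, so that the members lay 1.22 below all genes with TMM and 1.21 below without it. Without cells that cycled by all their UMIs 37 members were called, and among cells of 3000 to 6000 UMIs 20. All 79 fold changes stayed negative in both.

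The falls were largest in members of both subunits. *Rps2*, a small subunit protein at the mRNA entry site, had 2188, 3391 and 2459 CPM at P3 and 429, 862 and 539 CPM at 3m. Its log2 fold change was -1.96 ± 0.30 (SE, adjusted p = 0.000125, edgeR). *Rpl23a*, a large subunit protein near the exit of the peptide tunnel, had 1281, 893 and 833 CPM at P3 and 250, 257 and 183 CPM at 3m (-1.94 ± 0.23). Every 3m library of both genes lay far below every P3 library.

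The X-linked *Rps4x*, a small subunit protein, had 1744, 2205 and 1711 CPM at P3 and 354, 591 and 402 CPM at 3m (-1.89 ± 0.26, adjusted p = 3.94e-05, edgeR). *Rpl10a*, a large subunit protein of the L1 stalk, had 1118, 1225 and 930 CPM at P3 and 265, 287 and 247 CPM at 3m (-1.86 ± 0.21). Both also had no overlap between ages, and the 3m libraries of *Rpl10a* lay close together. *Rps6*, the S6 kinase substrate, had 568, 490 and 342 CPM at P3 and 266, 220 and 156 CPM at 3m, and fell by 0.96 ± 0.24 on the log2 scale (adjusted p = 0.00426, edgeR), short of the fold required for a call.

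The adjusted p was above 0.05 for 7 members, *Rps29*, *Rps27*, *Rps21*, *Rps27rt*, *Rpl37*, *Rpl37a* and *Rpl38*, all of them short proteins. *Rps29*, a zinc-binding small subunit protein, had 2800, 4005 and 2263 CPM at P3 and 1402, 3349 and 2066 CPM at 3m (-0.24 ± 0.34, adjusted p = 0.582, edgeR), and its ages overlapped. Without P3 library 2 its log2 fold change was 0.12. *Rps27*, another zinc-binding protein of the small subunit, had 1099, 1200 and 793 CPM at P3 and 647, 808 and 589 CPM at 3m (-0.43 ± 0.23, adjusted p = 0.145).

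*Rps21*, a small subunit protein, had 1799, 2365 and 1828 CPM at P3 and 974, 1832 and 1164 CPM at 3m (-0.42 ± 0.27, adjusted p = 0.224, edgeR). Only 3m library 2 reached the P3 range. *Rps27rt*, an intronless copy of *Rps27*, had 82.1, 79.6 and 63.5 CPM at P3 and 70.0, 52.6 and 38.0 CPM at 3m (-0.33 ± 0.21, adjusted p = 0.213). *Rps19bp1* had -0.59 ± 0.20 (adjusted p = 0.0279) and *Rpl37*, a small zinc-binding protein of the large subunit, -0.59 (adjusted p = 0.186). *Rpl37a* and *Rpl38*, also of the large subunit, both had -0.71 (adjusted p = 0.0728 and 0.0784). Ribosomal protein genes have many near-identical processed copies in the mouse genome, and reads that fit a gene and its copy equally well cannot be assigned, so the level of *Rps27rt* in particular is uncertain.

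**Figure D4:**
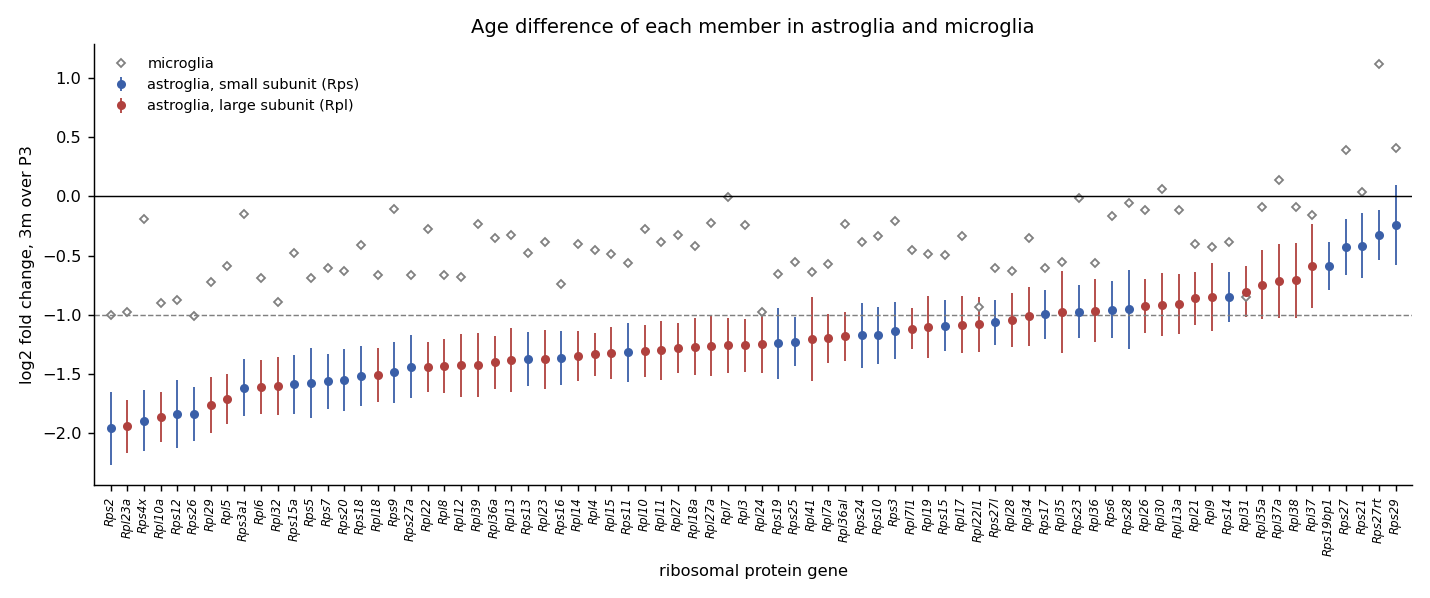
Log2 fold change of 3m over P3 (y axis) for 78 of the 79 tested members (x axis), with circles and SE bars for astroglia, coloured by subunit, and open diamonds for microglia. All astroglial values are below 0, from -1.96 for *Rps2* to -0.24 for *Rps29*, and most microglial values lie above the astroglial ones.

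Whether members changed relative to the family was asked in a second fit, in which few passed and none reached the fold of a call. Here each library's size was set to its sum over the members, so that a fold change is relative to the family. The dispersion was estimated over all genes at that size, and SEs stayed wide even where libraries lay close. *Rps3a1* had 14.5 to 17.0 per mille of member UMIs at P3 and 11.3 to 11.8 at 3m. Its log2 fold change was -0.43 ± 0.28 (adjusted p = 0.171, edgeR). Counts that pass in this fit may therefore miss members whose libraries separate the ages. In this fit 0 members were called, beside 5.49% of all genes called lower and 52.9% called higher. The scaling lifts other genes where the family's share fell, so shares of all genes in this fit are no background for members. By the adjusted p alone 4 members were higher and 6 lower (58.8% and 5.81% of all genes). At an unadjusted p under 0.05 there were 5 higher and 8 lower (61.9% and 6.36%), and 11 members had all 3m libraries above all P3 libraries and 20 below (61.3% and 7.23%). By DESeq2 0 members were called and 4 were higher and 7 lower by the adjusted p.

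*Rps29* took 21.2 to 28.8 per mille of member UMIs at P3 and 37.5, 56.9 and 49.2 per mille at 3m, a relative log2 fold change of 0.94 ± 0.27 (adjusted p = 0.00108, edgeR). *Rps27* went from 8.63 ± 1.19 to 15.02 ± 1.98 per mille (0.80 ± 0.28, adjusted p = 0.00962), and *Rps21* from 16.7 ± 0.598 to 28.3 ± 2.60 per mille (0.76 ± 0.27, adjusted p = 0.0106). *Rps27rt* was higher by 0.92 ± 0.35 (adjusted p = 0.0148). None of the 4 overlapped between ages on this scale.

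The other way, *Rps2* went from 22.3 ± 2.52 to 13.0 ± 1.61 per mille (-0.78 ± 0.28, adjusted p = 0.00952, edgeR). *Rps4x* had 15.6, 15.9 and 16.05 per mille at P3 and 9.47, 10.1 and 9.58 per mille at 3m (-0.71 ± 0.28, adjusted p = 0.0218), a narrow range at each age. *Rpl23a* (-0.74), *Rps26* (-0.64) and *Rps12* (-0.61) were also lower by the adjusted p. The libraries of *Rpl23a* and of *Rps12* (adjusted p = 0.0492) overlapped between ages here. The share lower by the adjusted p was near that of all genes, but the scaling shifted the latter. Leaving out 1 library gave 1 to 6 members lower and 3 to 5 higher. Of the 10 members that passed by the adjusted p, 9 were of the small subunit, which holds 33 of the 79 tested members. Of the large subunit, *Rpl10a* (adjusted p = 0.0506, edgeR) and *Rpl37* (0.0652) lay just above the threshold. A difference between the subunits was not tested.

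*Rps27* was named for its departure in astroglia of the same libraries, and its proportion is described here by cluster. *Rps27* took 7.37 to 11.3 per mille of member UMIs in the P3 clusters and 13.3 to 17.7 per mille in the 3m clusters, with no overlap over 23 combinations of cluster and age. Clusters of 1 age share their libraries, so these are not independent replicates. Most clusters were described at 1 age only, so age and cell type cannot be told apart in them. How many other members or genes separated the ages in this way is not given here. *Rps29* was lowest in AST_P3_1 (22.2 per mille) and highest in the microglia of 3m (66.3 per mille), and *Rps2* ran from 10.1 per mille in those microglia to 34.8 per mille in LOW_20. The widest ranges were those of *Rpl7l1* (76.6-fold), *Rps27l* (57.6-fold) and *Rps19bp1* (53.3-fold), with the lowest value of each in LOW_20.

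Among the tissue-restricted or duplicated paralogues in the table, 5 were tested in astroglia and 4 were called lower at 3m. This stands beside 57 of the 79 tested members and 16.04% of all tested genes. *Rpl22l1*, the paralogue of *Rpl22*, fell by 1.08 ± 0.23 on the log2 scale (adjusted p = 0.00143, edgeR), from 556, 753 and 486 CPM to 214, 279 and 261 CPM. *Rpl36al* fell by 1.18 ± 0.21 and *Rps27l*, a p53 target paralogous to *Rps27*, by 1.07 ± 0.19. *Rpl7l1*, which takes part in making the large subunit, fell by 1.12 ± 0.17. The exception was *Rps27rt*, given above.

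Of the 7 ribosomal protein genes outside the symbol rule, 5 were called lower, beside 16.04% of all tested genes. *Rplp0*, the base of the large subunit stalk, had 1781, 2543 and 1511 CPM at P3 and 259, 458 and 294 CPM at 3m (-2.36 ± 0.30), a larger fold than that of any member. *Rpsa* (-1.93), the scaffold protein gene *Rack1* (-1.80), *Rplp2* (-1.36) and *Fau* (-1.19) followed. *Rplp1* fell by 0.93 (adjusted p = 0.0195, edgeR).

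Genes that make or use ribosomes were followed as lists that the members do not enter, and their counts stand beside the 16.04% of all genes called lower and the 15.9% called higher. Of 33 tested ribosome biogenesis genes 13 were called lower and 0 higher (median -0.82), with *Nop58* (-2.26) and the rRNA methyltransferase gene *Fbl* (-1.98) lowest and *Gnl2* (-0.18) and *Rrp9* (-0.05) nearest to 0. Of 29 initiation genes 6 were called lower, near the share of all genes, among them *Pabpc1*, the poly(A)-binding protein gene (-1.53), and *Eif3f* (-1.46), and 1 higher, the helicase gene *Eif4a2* (1.09), while *Eif1* had 0.26. Of 9 elongation genes 6 were called lower, with *Eif5a* (-1.55) and *Eef1a1* (-1.47) at the low end, and 1 higher, *Eef1a2* (4.35), the form used by mature neurons and muscle. *Eef1d* had -0.63.

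Of 78 tested mitochondrial ribosomal protein genes 1 was called lower, *Mrps6* (-1.23), and 0 higher, with a median of -0.31. *Mrpl39* had -0.99, and *Mrpl41* (0.48) and *Mrps9* (0.22) were at the upper end. Of 11 genes of TOR signalling 2 were called higher, near the share of all genes, the inhibitors *Tsc1* (1.17) and *Tsc2* (1.00), and 0 lower, with a median of 0.20. *Eif4ebp2*, a translation inhibitor that TOR inactivates, had -0.88, and the S6 kinase gene *Rps6kb1* had -0.59. The median over all genes was -0.04, and the difference between lists was not tested.

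In microglia the same family moved less. Of 2679 genes tested, 3.40% were called lower and 6.76% higher at 3m. Of 78 tested members 3 were called lower, among them *Rps26* (-1.01) and *Rps2* (-1.0004), and 1 higher. By the adjusted p alone 11 members were lower (4.18% of all genes) and 1 higher (7.39%), and 47 had all 3m libraries below all P3 libraries (19.6% of all genes). The median was -0.42 over the members and -0.02 over all genes. The sums were small, 280861 to 329377 UMIs at P3 and 53392 to 101265 UMIs at 3m. Astroglial markers in them summed to 495 to 4550 CPM at P3 and 169 to 839 CPM at 3m. Oligodendrocyte markers summed to 24.9 to 86.3 CPM at P3 and 206 to 2459 CPM at 3m.

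*Rps2* had 2774, 4144 and 3441 CPM in P3 microglia and 1392, 1757 and 1629 CPM in 3m microglia (2.17-fold lower, adjusted p = 0.0137, edgeR). The member called higher was *Rps27rt*, with 185, 146 and 107 CPM at P3 and 444, 218 and 187 CPM at 3m (1.12 ± 0.33, adjusted p = 0.0407). It was not called by DESeq2, without the filter on low counts, without TMM scaling or with stricter cell filters, and it kept its call in 1 of 6 fits that each left out a library. *Rps29* had 0.41 (adjusted p = 0.450) and *Rps27* 0.40 (adjusted p = 0.347).

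The difference between the age effects of astroglia and microglia was tested in 1 model over both classes, with 9275 genes. The members had a median of -0.43, a larger fall in astroglia, against 0.36 over all genes. Without TMM scaling these were -0.90 and -0.09. In the model 2 of 79 members were called lower, beside 1.88% of all genes, and 0 higher (5.16%), and DESeq2 called 3 lower and 0 higher. Without scaling 27 were called lower and without the library as a block 0, so the count depends on both, while the members lay 0.78 below all genes with TMM and 0.80 below without it. By the adjusted p 5 members were lower (1.97% of all genes), and at an unadjusted p under 0.05 25 were lower (5.07%) and 0 higher (13.5%).

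*Rps4x* differed most. Its level was 3137, 3443 and 3207 CPM in P3 microglia and 2587, 3067 and 2229 CPM in 3m microglia, a log2 fold change of -0.19 ± 0.23, while in astroglia it fell 4.20-fold. The difference of the effects was -1.30 ± 0.28 (adjusted p = 0.000572, edgeR). *Rps3a1*, which lies beside the mRNA exit on the small subunit, had 1629, 2088 and 1817 CPM in P3 astroglia and 440, 666 and 488 CPM in 3m astroglia, against 2920, 3182 and 3234 CPM and 2627, 2819 and 2285 CPM in microglia (difference -1.06 ± 0.28, adjusted p = 0.00648).

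*Rps9* (-0.97 ± 0.27, adjusted p = 0.0139, edgeR), *Rpl7* (-0.83 ± 0.27, adjusted p = 0.0406) and *Rps27rt* (-0.99 ± 0.32, adjusted p = 0.0388) also passed by the adjusted p. Outside the rule, *Rplp0* had a difference of -1.14 ± 0.28 (adjusted p = 0.00342). The microglial log2 fold changes of *Rps9* (-0.11) and *Rpl7* (-0.00484) were near 0, while *Rps27rt* was the gene called higher in microglia.

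In cycling against non-cycling P3 astroglia, paired within libraries over 13068 genes, all 79 tested members were higher by the adjusted p (27.2% of all genes), and all 79 were higher in each of the 3 libraries (27.0% of all genes). None reached the fold of a call in edgeR or DESeq2, beside 7.19% of all genes called higher and 8.65% called lower. The median was 0.66 over the members and -0.02 over all genes. Without the pairing 41 members passed by the adjusted p.

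The rises ran from 0.26 to 0.91 across the family. *Rpl12*, a large subunit protein of the stalk base, had 684, 505 and 351 CPM in non-cycling and 1247, 775 and 641 CPM in cycling cells (0.91 ± 0.07, adjusted p = 8.56e-20, edgeR). *Rps2* (0.90), *Rps18* (0.88), *Rps6* (0.88) and *Rpl4* (0.87) came next. The smallest rises were those of *Rps19bp1* (0.26 ± 0.08, adjusted p = 0.00322), *Rpl22l1* (0.47), *Rps27rt* (0.48), *Rpl27* (0.49) and *Rpl38* (0.50). Of the biogenesis genes 29 of 33 were higher by the adjusted p, with a median of 0.53.

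The size of the age difference varied with the length of the coding sequence. Over the 79 tested members the astroglial log2 fold change correlated with the log2 number of codons with Pearson's r = -0.45 and Spearman's rho = -0.46, across genes of the same 6 libraries, as a description. In microglia r was -0.26 over 78 members, and in the cycling comparison 0.26. The 7 members that did not pass the test in astroglia were all among the 10 of under 100 codons (*Rpl37a*, *Rps21*, *Rps27*, *Rps27rt*, *Rpl41*, *Rpl38*, *Rps29*, *Rpl37*, *Rps28* and *Rpl39*). These 10 had a median of -0.65 in astroglia with 2 called lower. The 69 longer members had -1.28 with 55 called. In microglia the medians were -0.01 and -0.48.

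The 2 called among the short members were *Rpl41*, with 25 codons the shortest, at -1.21 ± 0.35, and *Rpl39*, with 51 codons, at -1.42 ± 0.27. *Rpl41* had 3653, 6702 and 4989 CPM at P3 and 1161, 2877 and 1861 CPM at 3m. Length was thus no strict order. The letters of the promoters did not divide the members: the median log2 fold change was -1.23 in the 41 tested members with CGGAAG or CTTCCG and -1.24 in the 19 without, and -1.25 in the 28 with a C or T run of 8 or more and -1.22 in the 32 without.

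**Figure D5:**
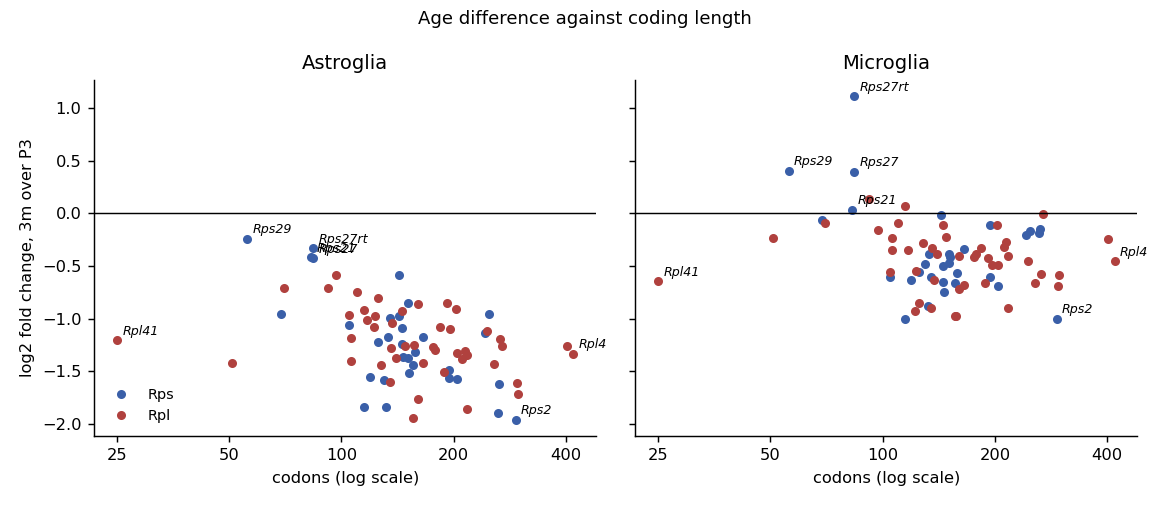
Log2 fold change of 3m over P3 (y axis) against the number of codons (x axis, log scale) for the same members in astroglia and in microglia, coloured by subunit. Most members of under 100 codons lie above the median of the longer ones. In astroglia *Rpl41* at 25 codons lies close to that median and *Rpl39* below it.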

How the data were processed

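Per the labels and the study's methods, the authors aligned 10x Genomics 3′ v3.1 reads to mm10 with Cell Ranger and clustered cells with Seurat (version 3.1.1 in the submitters' processing notes), and the deposited counts are raw UMI counts per gene and cell. Clusters, sub-clusters and pseudotime bins were taken from the authors' deposited table of cells. The deposited pseudotime is a score without a unit that the authors computed with Slingshot from sub-cluster 6. The authors required more than 500 genes in a cell and a mitochondrial fraction below 10%. No doublet caller was run. Counts were summed per library and class. edgeR 4.0.16 (R 4.3.3) used TMM, filterByExpr, a quasi-likelihood test and Benjamini-Hochberg adjustment over all genes tested, two-sided, and the SE is the absolute log2 fold change over the root of F. The cycling comparison and the astroglia-microglia model had the library as a block, since each library gives both sums. DESeq2 1.42.0, other scalings, filters and cell sets, and leaving out each library were alternatives. The fits, apart from the one relative to the family, were run on simulated counts with the same dispersion for every gene. The outcome is not given here. Described groups needed 10 cells in a library. The study calls the 3 preparations of an age independent, each from several animals. In the age fits p-values rest on the spread between them, with a dispersion that edgeR shares across genes. In the fits with the library as a block they rest on the spread of differences within libraries.

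The members and lists were chosen with earlier results of these data known. Named genes were, at 50 CPM or more in the higher group, the 5 largest and 5 smallest falls in astroglia, the 5 largest departures each way relative to the family, the 3 largest each way in microglia, the 5 lowest p of the difference between classes, the 5 largest each way with cycling, all paralogues, *Rps6*, the 7 genes outside the rule, and the 2 largest each way of the other lists. *Rps4l* was not analysed here, and a few genes that the rule names are not reported here. *Rpl41*, *Rpl39*, *Rpl37*, *Rpl37a*, *Rpl38* in astroglia and *Rps12* were named after their values were seen. Coding lengths came from GENCODE vM21 (GRCm38) and promoters from RefSeq (GRCm38.p6).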

Additional observations from a re-analysis of the deposited data

Results flagged for a closer look

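The test of the difference between the age effects of astroglia and microglia (edgeR, with the library as a block) passed by its adjusted p for 5 members and for 1 ribosomal protein gene outside the symbol rule. The difference was -1.3 on the log2 scale for *Rps4x*, -1.06 for *Rps3a1*, -0.99 for *Rps27rt*, -0.97 for *Rps9* and -0.83 for *Rpl7*, and -1.14 for *Rplp0*, each a lower 3m over P3 ratio in astroglia. Over all genes tested the median difference was 0.36. Astroglial markers in the microglial sums were 495 to 4550 CPM at P3 and 169 to 839 CPM at 3m. Oligodendrocyte markers there were 24.9 to 86.3 CPM at P3 and 206 to 2459 CPM at 3m. The part of either in these differences was not tested.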

How the results depend on the processing

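The median fall of the members in astroglia kept its direction in each alternative run, and the count called lower (57) was 20 among cells of 3000 to 6000 UMIs and 37 without cells that cycled by all their UMIs. The first of these tested fewer cells and genes. By the adjusted p alone 46 members were lower in that depth range, against 72. The other counts called lower were 45 to 74, and leaving out 1 library gave 45 to 73. The difference in share (-7.31 points) was -5.42 for the median of cells, -5.53 without cycling cells, -4.53 among cells of 3000 to 6000 UMIs and 1.15 among cells of up to 2000 UMIs, where the median of cells gave -4.48, and leaving out 1 library gave -7.95 to -6.33. Leaving out sub-cluster 16, or 12, 15 and 16, and splitting cells at 2000 UMIs were chosen after seeing the data.

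In microglia the 1 member called higher became 0 with DESeq2, with no filter on low counts, with no scaling and with stricter cell filters, and was 0 to 1 with 1 library left out. The 3 called lower became 12 with no filter and 8 with no scaling, and 0 (without 3m library 3) to 7 (without P3 library 3) with 1 library left out. By the adjusted p alone the 11 lower became 21 with no filter and 22 with no scaling, and 0 to 13 with 1 library left out. Relative to the family, the counts called with 1 library left out were 0 to 1 higher and 0 to 1 lower, and by the adjusted p alone 3 to 5 higher and 1 (without 3m library 3) to 6 lower. For the difference between classes the 2 called lower became 4 with RLE scaling, 27 with no scaling and 1 to 4 with 1 library left out, and by the adjusted p alone the 5 became 9, 54 and 1 to 6, and 19 with DESeq2. Among cycling cells 16 members were called higher when the state was called on all UMIs, against 0.

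The P3 and 3m libraries with the same number share only a number: their deviations correlated at 0.207, 0.0989 and 0.0370 over 13469 genes. With this replicate block 59 members were called lower in astroglia, 2 lower and 1 higher in microglia (35 lower by the adjusted p alone), and relative to the family 9 were higher and 10 lower by the adjusted p alone. With no replicate block, the cycling comparison had 41 members higher by the adjusted p and the difference between classes had 0 members called. The causes of these changes were not tested.

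Signs turned for 7 genes with printed values that were not called. *Rps29* in astroglia had -0.69 to 0.12 with 1 library left out, the latter without P3 library 2, and *Gnl2* had 0.0715 after thinning to the smallest total. *Rrp9* had 0.59 among cells of 3000 to 6000 UMIs, 0.13 without cycling cells, 0.095 with stricter cell filters, 0.0847 in telencephalic sub-clusters, 0.21 after thinning and -0.22 to 0.11 with 1 library left out. In microglia *Rps6* had -0.51 to 0.0149, *Rps9* -0.35 to 0.082 and *Rpl7* -0.25 to 0.24 with 1 library left out, and *Rplp1* had -0.0851 with no filter and -0.37 to 0.62 with 1 library left out. The 3m sums of microglia were the smallest, with 53392 to 101265 UMIs. What set the precision was not tested.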
